A study of Mus musculus with 10 samples.

Results

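The clustered and variant histone genes were read out across MAF9 cells that had been treated with 1 of 4 inhibitors or with DMSO. The members were the 68 genes of the count table whose symbols start with Hist1h, Hist2h, Hist3h or Hist4h, together with 8 variant genes, H1f0, H1fx, H2afx, H2afz, H2afy, H2afv, H3f3a and H3f3b, which made 76 of 24015 genes in all. The symbols sort the clustered genes into 6 for the linker histone H1, 18 for H2A, 19 for H2B, 12 for H3 and 13 for H4. The rule used no measured value.

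MAF9 cells are C57BL/6 mouse bone marrow cells that carry the leukemia fusion gene MLL-AF9 by transduction, so every group, controls included, carries the fusion. Their medium held interleukin-3 at 10 ng/ml and serum at 15%. For 4 days they received MM-401 (which keeps MLL1 from binding WDR5), EPZ5676 (an inhibitor of the H3K79 methyltransferase DOT1L), MI-2-2 (which blocks the binding of MENIN to MLL), iBET (an inhibitor of BET proteins), each at the dose given as its IC50, or DMSO alone. Each of the 5 conditions had 2 libraries, described as biological duplicates, with no word on whether both came from the same transduction. The libraries were made from total RNA with an Illumina TruSeq protocol. The sources used here do not say whether RNA with a poly(A) tail was selected.

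Nucleosomes are built from the core histones H2A, H2B, H3 and H4, and H1 binds the linker DNA between them. The clustered genes are intronless, lie in groups, and are switched on together in S phase so that new DNA can be packed. Their mRNAs classically end in a short stem-loop bound by SLBP instead of a poly(A) tail, and they are degraded when replication stops. Some clustered genes can also make a longer, polyadenylated mRNA, a form known from cells that have left the cycle or are differentiating. The variant genes stand alone and, H2afx apart, make ordinary polyadenylated mRNAs and are expressed outside S phase. H3.3, from H3f3a and H3f3b, is laid down at active genes by HIRA and at repeats by DAXX and ATRX. H2A.Z, from H2afz and H2afv, marks promoters, H2A.X from H2afx is phosphorylated at DNA breaks, macroH2A1 from H2afy carries an extra macrodomain, and H1.0 from H1f0 accumulates as cells differentiate.

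The stem-loop was looked for in the annotated transcripts of the members, since an mRNA that ends in it classically has no poly(A) tail. Which form the libraries held is not known. It was taken as a 6-base stem that starts with GG, a 4-base loop that starts with TTT, and the exact reverse complement of the stem, within 120 bases after the coding end. Of 67 clustered members with a coding transcript in GENCODE M21, 15 had an annotated end under 16 bases after the coding sequence, 44 had the stem-loop and 8 did not have these letters. Of the 8 variants, 1 had it, H2afx, whose mRNA is known in both forms. Over all 20984 genes with a coding transcript long enough to be searched, 50 (0.238%) had the stem-loop, 45 of them members. The site is given for genes of each type on which the results turn, with the stem and loop in capitals and 5 bases on each side.
Hist1h1c: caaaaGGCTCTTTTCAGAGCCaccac
Hist3h2a: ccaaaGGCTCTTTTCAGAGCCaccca
Hist1h3c: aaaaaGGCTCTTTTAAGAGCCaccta
Hist1h4b: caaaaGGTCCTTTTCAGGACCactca
H2afx: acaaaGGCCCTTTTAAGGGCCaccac
Hist1h1c, Hist3h2a and Hist1h3c have the same stem, and Hist1h4b and H2afx each have another. The transcript of Hist1h1c runs 840 bases beyond it and that of Hist3h2a 1643, against 74 for Hist1h3c and 28 for Hist1h4b. Hist2h2be, which has no match to the stem-loop, is annotated 2195 bases past its coding end. A total of 14 clustered genes had the poly(A) signal AATAAA in the last 40 bases of an annotated transcript, among them Hist1h1c, Hist3h2a and Hist2h2be, and 10 of the 14 had the stem-loop as well.

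The 250 bases before the annotated start are shown for some of the members that were called in a comparison. They come from RefSeq on GRCm38.p6, which is not the build the reads were counted on, and served for sequence only. A RefSeq gene was matched to 75 of 76 members and a promoter to 68. Capitals mark, on either strand, the CCAAT box CCAAT, the TATA box TATAAA, the octamer ATTTGCAT and the H1 box AAACACA, none of which contains another.
Hist1h1c (chr13:23738557-23738806, plus strand): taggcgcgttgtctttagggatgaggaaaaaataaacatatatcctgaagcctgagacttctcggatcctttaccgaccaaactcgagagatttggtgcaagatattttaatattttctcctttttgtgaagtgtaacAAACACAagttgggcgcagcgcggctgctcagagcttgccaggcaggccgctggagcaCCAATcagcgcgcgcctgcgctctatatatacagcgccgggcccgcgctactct
Hist3h2a (chr11:58954435-58954684, plus strand): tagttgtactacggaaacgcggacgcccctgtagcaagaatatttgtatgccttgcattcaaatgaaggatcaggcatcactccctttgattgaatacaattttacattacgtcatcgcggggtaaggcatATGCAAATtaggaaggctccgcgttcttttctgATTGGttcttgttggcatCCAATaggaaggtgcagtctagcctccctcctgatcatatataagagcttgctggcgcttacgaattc
Hist1h3c (chr13:23745522-23745771, minus strand): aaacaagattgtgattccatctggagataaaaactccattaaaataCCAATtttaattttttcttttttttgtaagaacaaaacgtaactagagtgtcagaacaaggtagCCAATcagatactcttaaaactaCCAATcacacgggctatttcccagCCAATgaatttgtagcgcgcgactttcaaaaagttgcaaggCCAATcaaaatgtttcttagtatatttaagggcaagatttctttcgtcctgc
H3f3b (chr11:116024505-116024754, minus strand): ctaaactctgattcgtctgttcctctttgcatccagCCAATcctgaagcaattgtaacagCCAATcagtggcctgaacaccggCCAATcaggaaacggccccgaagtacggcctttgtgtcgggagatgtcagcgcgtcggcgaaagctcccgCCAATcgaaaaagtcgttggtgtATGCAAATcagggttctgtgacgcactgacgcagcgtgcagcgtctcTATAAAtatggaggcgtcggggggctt
H2afy (chr13:56135551-56135800, minus strand): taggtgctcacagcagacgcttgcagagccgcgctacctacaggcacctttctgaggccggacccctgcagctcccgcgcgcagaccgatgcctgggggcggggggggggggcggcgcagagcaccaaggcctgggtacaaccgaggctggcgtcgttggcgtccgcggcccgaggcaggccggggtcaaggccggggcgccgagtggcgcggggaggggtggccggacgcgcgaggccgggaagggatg
CCAAT was present in all 6 H1, 17 H2A and 16 H2B promoters, in 8 of 10 for H3, in 3 of 12 for H4 and in 4 of 7 for the variants, against 34.5% of 27025 promoters of the same length. AAACACA was found in 5 of 6 H1 promoters, in 2 of 17 for H2A, in 2 of 16 for H2B, in 1 of 7 for the variants and in none for H3 or H4, against 6.22% of all. ATTTGCAT was found in 7 of 17 H2A and 6 of 16 H2B promoters, in 1 variant (H3f3b) and in no other type, against 1.61% of all. TATAAA was found in 4 of 6 H1, 7 of 17 H2A, 8 of 16 H2B, 4 of 10 H3, 6 of 12 H4 and 1 of 7 variant promoters, against 13.0% of all. H2afy and H1f0 held none of the 4 in this window. A match here is a string of letters and not a shown binding site.

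The libraries held between 20394762 and 29473127 counted reads. The DMSO libraries stood apart from each other, with a correlation of log2 values of 0.942 across genes against 0.983 to 0.992 within the other conditions. The second DMSO library had 3630 reads in 4 Y-linked genes and 97 in Xist, while the other 9 had 0 to 2 and 21802 to 72357. Y-linked genes are carried by male cells, and Xist is made from the inactive X chromosome of female cells. In these reads the second DMSO library is that of male cells and the other 9 are those of female cells. Only the first DMSO library therefore matches the treated libraries in them. Every comparison with both DMSO libraries averages over libraries that differ in these reads, and the part of this difference in the results was not tested. All 8 myeloid markers listed had enough reads to be tested. Of 20 markers of T, B, erythroid, stromal and endothelial cells only Lck, Cd79a, Cd79b, Klf1, Col1a1 and Pecam1 had. Against DMSO, Lck was lower under EPZ5676, MI-2-2 and iBET. Of Cd79a and Cd79b, 1 was higher under EPZ5676 and 1 lower under iBET. Of Col1a1 and Pecam1, 1 was higher and 1 lower under EPZ5676 and under MI-2-2, and 1 was lower under iBET. With MM-401 no marker was called. Of the 8 myeloid markers, 6 were higher and 1 lower under EPZ5676, where 18.7% of all genes rose and 19.4% fell. Under MI-2-2 6 were higher and 2 lower (20.2% and 21.2% of all genes). Mpo alone was lower under iBET (6.38% rose and 7.54% fell). The summed level of the 8 was 1735 and 6061 CPM in DMSO and 1175 to 4992 in the treated libraries. The part of these marker differences in the histone results was not tested. In bulk RNA, fewer cells of a kind and less RNA per cell cannot be told apart.

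Of the 76 members, 11 had no read in any library, 3 had 1 to 9 reads (Hist1h1t, H1fx and the pseudogene Hist3h2bb-ps) and 62 had at least 10. A low-count filter across all genes left 48 for testing, 41 clustered (5 H1, 8 H2A, 11 H2B, 6 H3 and 11 H4) and 7 variants, while 14 more with at least 10 reads enter only the sums. Of the 11 genes without a read, 7 have a coding sequence that is identical in every base to that of another member, such as Hist2h2aa1 and Hist2h2aa2 or Hist1h2bq and Hist1h2br. The sources used here do not say how reads that match several genes were counted. The counts of these genes, and of Hist1h4n, whose coding sequence equals that of Hist1h4m, are therefore uncertain. Those of near-identical genes may be affected as well. The coding sequence of Hist1h2bc is 98.9% identical to that of Hist1h2bj. For Hist1h3a and Hist1h3c the closest members, Hist1h3h and Hist1h3b, are 98.8% and 98.5% identical.

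The variants made up almost all histone reads, with 425956 reads over the 10 libraries against 25421 for the 55 clustered genes. Levels are given as CPM (reads per 1000000 counted, scaled by the TMM factors), and between genes only per kilobase of coding sequence, although reads outside the coding part are counted too. On that scale, as a mean over the 10 libraries, H3f3b led with 1261, followed by H1f0 with 644, H2afy with 491, H2afx with 320, H3f3a with 275, H2afv with 192 and H2afz with 128. H1fx stood at 0.0526 with 7 reads in all. The highest clustered genes were Hist1h1c with 59.3, Hist1h2bc with 44.7, Hist2h2be with 26.7, Hist1h4i with 18.5 and Hist3h2a with 12.6. Every other clustered gene lay at or below 4.50. Hist1h1c alone held 34.8% of the clustered reads and Hist1h2bc 15.8%.

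Summed over a type, the clustered genes of every type were higher in the first DMSO library than in the second. The 5 H1 genes summed to 52.3 and 20.5 CPM in DMSO, 25.9 and 19.8 with MM-401, 57.3 and 45.4 with EPZ5676, 74.1 and 47.7 with MI-2-2, and 76.8 and 49.2 with iBET. The 15 H2B genes gave 36.3 and 13.2 in DMSO, 20.3 and 15.3 with MM-401, 37.7 and 36.0 with EPZ5676, 42.4 and 34.5 with MI-2-2, and 60.2 and 52.9 with iBET. Both types were lowest in the second DMSO library and the MM-401 libraries, and for H2B both iBET libraries exceeded every library of the other conditions. The 13 H2A genes ranged from 4.60 to 13.5 CPM and the 12 H4 genes from 7.10 to 14.7. The 7 variants with enough reads gave 2699 and 2733 with iBET and at most 1804 elsewhere. The 10 H3 genes gave 9.54 and 2.64 in DMSO and 1.97 to 4.86 in the 8 treated libraries. All these sums are descriptions with no test.

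**Figure D1:**
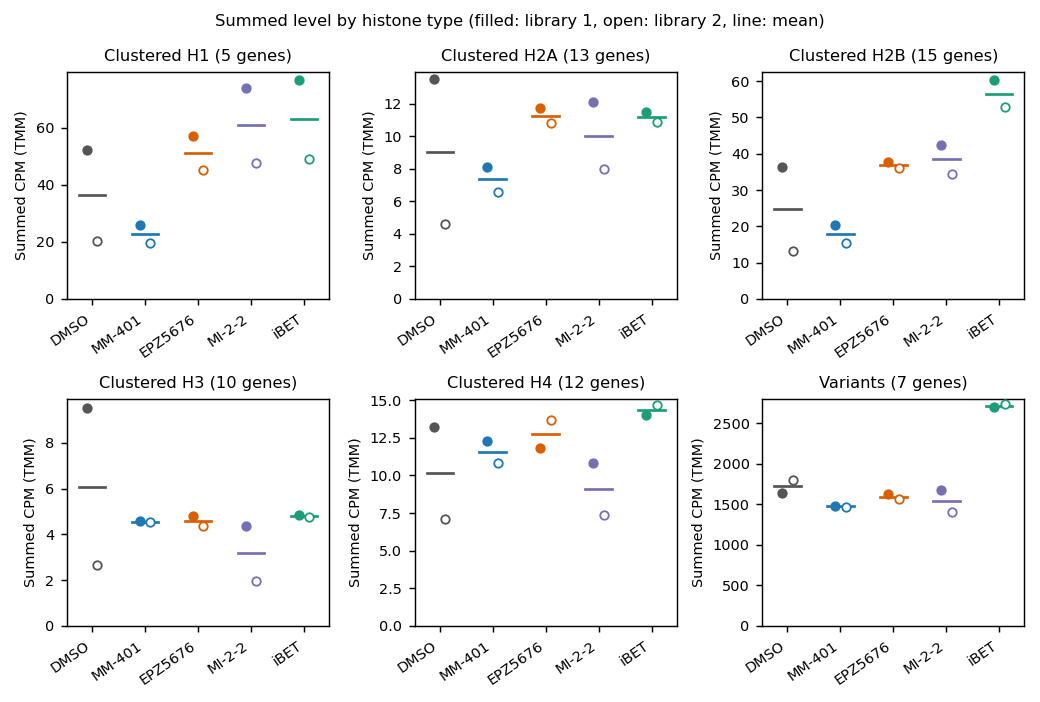
Summed CPM (TMM-scaled, vertical axis from 0) of the clustered genes of each histone type and of the variants, for the 2 libraries of each condition (filled and open points, with the mean as a line). The first DMSO library is 1.87 to 3.62 times as high as the second in the 5 clustered types, while the variant sum, at 1638 and 1804, is not. Within that sum, H1f0 (372 and 165) and H2afx (169 and 73.1) are higher in the first and H2afy (503 and 879) in the second.

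The gap between the DMSO libraries ran through most clustered genes. It was not confined to them, since the variants H1f0 (372 and 165 CPM) and H2afx (169 and 73.1 CPM) had it too. Of the 41 clustered genes tested, 38 were higher in the first DMSO library, with a median ratio of 2.42 after adding 0.1 CPM. The same median was 1.09 to 1.72 in the other conditions, and over all 12971 genes the log2 ratio was 0.010 in DMSO. Hist1h1d had 320 and 16 reads in the DMSO libraries, Hist1h1e 248 and 16, and Hist1h1b 244 and 12. In the 8 treated libraries these 3 genes, which encode linker histones of dividing cells, had 22 to 102 reads each, so that every treated library lay between the DMSO libraries. Hist1h1c had 463 and 376 reads, or 18.0 CPM in both. Results against DMSO are therefore given with both libraries and with each alone, where a condition left with 1 library is assumed to vary like the others. The DMSO libraries differed more than those of any other condition. Fits with 1 DMSO library leave that spread out, so their calls understate the error of the control.

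**Figure D2:**
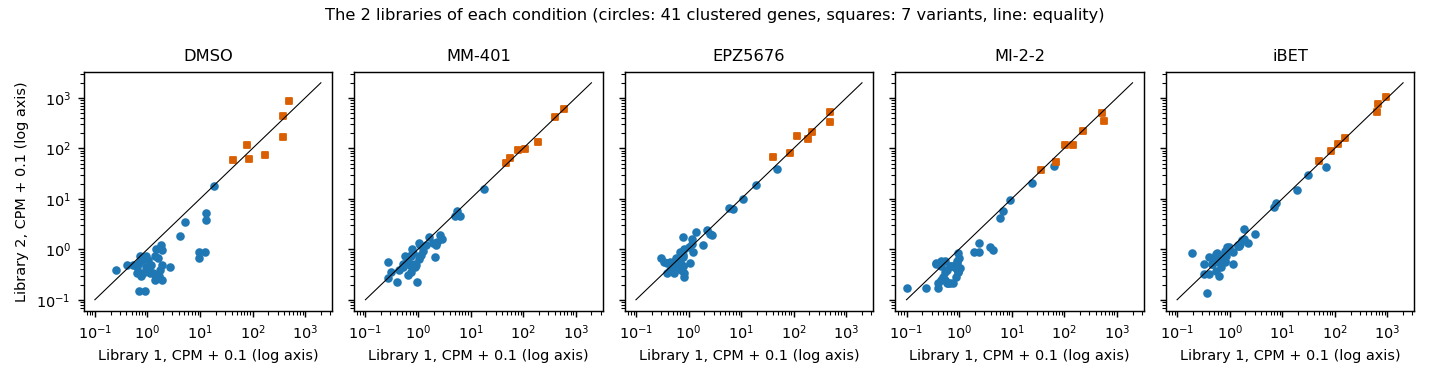
CPM of the second library against the first, with 0.1 added and both axes logarithmic, for the 41 clustered genes (circles) and 7 variants (squares) in each condition, with the line of equality. In DMSO 38 of 41 circles lie below the line, and in MM-401 29, EPZ5676 24, MI-2-2 34 and iBET 25.

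To ask which histone genes moved with each inhibitor, the tested members were read from a fit over all 12971 genes with the quasi-likelihood test of edgeR and p-values adjusted after Benjamini and Hochberg, where a call means an adjusted p under 0.05. The comparisons share their DMSO libraries, so their values stand side by side and are not independent of each other. With MM-401 no member rose and none fell, as for all genes (0% each). At an unadjusted p under 0.05 there was 1 member, Hist1h4h, against 11.2% of all genes, and DESeq2 called no member. With EPZ5676 1 member rose (Hist1h1c) and 1 fell (H2afy), against 18.7% and 19.4% of all genes. With MI-2-2 2 rose (Hist1h1c and Hist1h2bc) and 4 fell (H2afy, Hist1h3a, Hist1h3c and Hist1h4b), against 20.2% and 21.2%. With iBET 3 rose (Hist1h1c, Hist1h2bc and H3f3b) and none fell, against 6.38% and 7.54%. The share of the 48 members called in either direction was 4.2%, 12.5% and 6.2% for the last 3 inhibitors, below that of all genes in each. The median log2 change of the 41 clustered genes was -0.09, -0.22, -0.68 and -0.10 for the 4 inhibitors in the order above, against -0.006, -0.058, -0.054 and -0.035 over all genes.

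Which DMSO library served as control decided the direction of the clustered genes as a group. Over the 41 clustered genes tested with both, those with a negative change against the first alone numbered 30, 34 and 27 for EPZ5676, MI-2-2 and iBET, with medians of -0.58, -1.13 and -0.62. Against the second alone, 36, 31 and 37 of 41 had a positive change, with medians of 0.97, 0.55 and 1.03. With the first alone, 4 of the 48 members rose and 6 fell with EPZ5676 (18.9% and 16.6% of all genes), 3 rose and 10 fell with MI-2-2 (20.4% and 17.2%), and 4 rose and 2 fell with iBET (9.76% and 11.9%). The falls included Hist1h1e in all 3, and with MM-401 there were none in either direction (0% of all genes each). With the second alone, 8 rose and 1 fell with EPZ5676 (25.5% of all genes in each direction), 6 rose and 3 fell with MI-2-2 (27.0% and 26.9%), and 9 rose and none fell with iBET (13.9% in each direction). The share of all genes called was thus also larger with the second library. In that fit MM-401 had 1 call, a fall of H2afy (rises in 5.96% and falls in 4.28% of all genes). Hist1h1c and Hist1h2bc were among the rises and H2afy among the falls for EPZ5676 and MI-2-2 under both choices. Hist1h3c and Hist1h4b, both low in reads, were among the falls for MI-2-2 under both. For iBET, Hist1h1c, Hist1h2bc and H3f3b were among the rises under both.

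**Figure D3:**
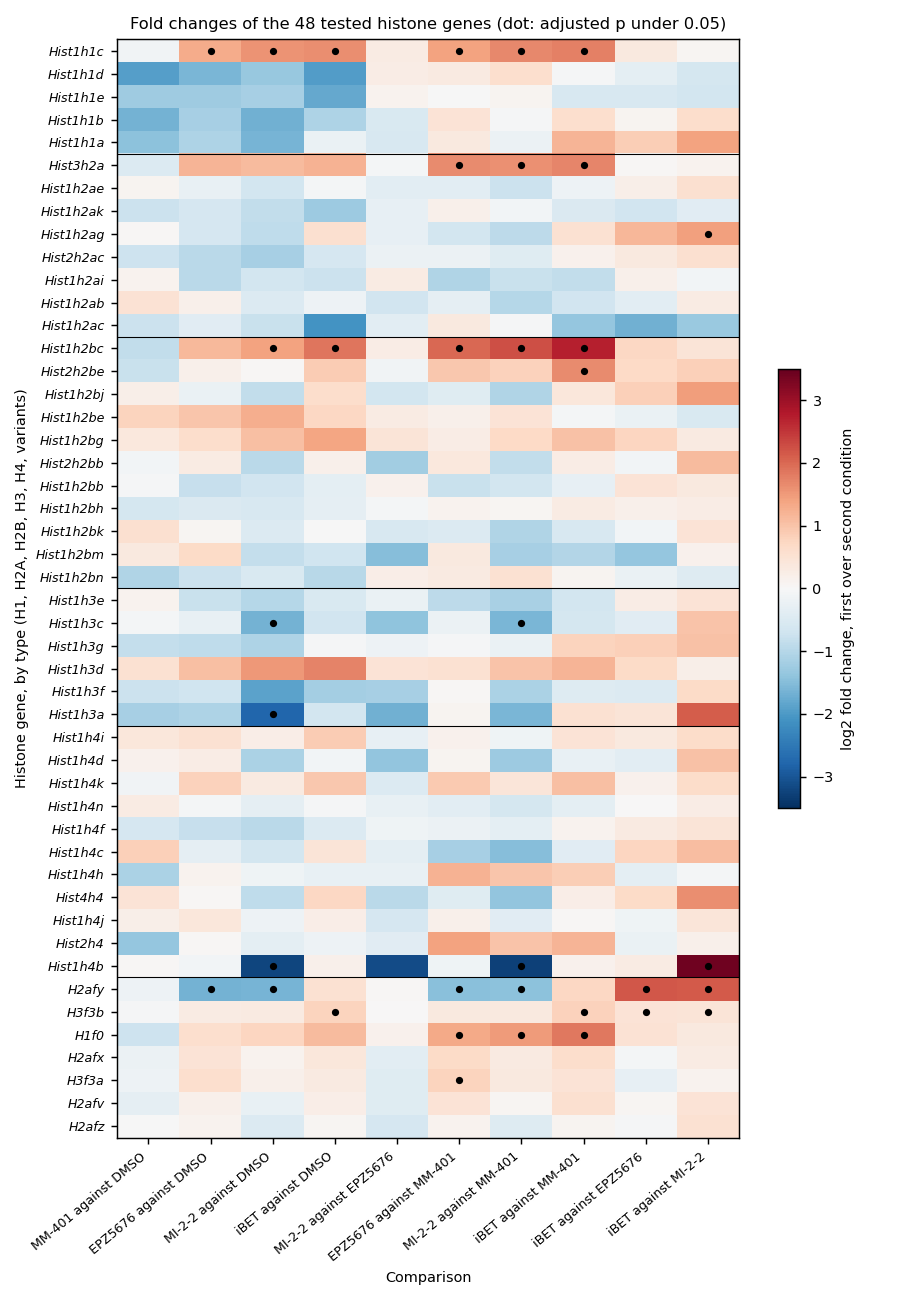
Log2 fold changes (colour scale) of the 48 tested histone genes (rows, ordered by type and by reads) in 10 comparisons (columns), with a dot where edgeR's adjusted p was under 0.05. Dots line up in the rows of Hist1h1c, Hist1h2bc, Hist3h2a, H2afy, H3f3b and H1f0, and the column of MI-2-2 against EPZ5676 has none.

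Among linker histones, Hist1h1c (H1.2) rose with 3 of the 4 inhibitors. Its levels were 18.0 and 18.0 CPM in DMSO, 18.2 and 15.3 with MM-401, 49.0 and 39.0 with EPZ5676, 62.8 and 44.8 with MI-2-2, and 68.7 and 43.6 with iBET. The libraries of these 3 inhibitors lay above all 4 of DMSO and MM-401, with no overlap. The log2 change against DMSO was 1.29 (SE 0.258) with EPZ5676, at an edgeR adjusted p of 0.00695. It was 1.58 (SE 0.260) with MI-2-2, at an edgeR adjusted p of 0.00295, and 1.64 (SE 0.260) with iBET, at 0.00906. With MM-401 it was -0.11 (SE 0.257, edgeR adjusted p = 0.914). Unlike the other linker histone genes, Hist1h1c gave nearly the same change against either DMSO library, 1.31 and 1.29 for EPZ5676, 1.61 and 1.58 for MI-2-2, and for iBET 1.64 in both cases. The iBET call was lost without the first iBET library (log2 1.28, edgeR adjusted p = 0.0570) and in a fit of the 4 DMSO and iBET libraries alone (adjusted p = 0.103).

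The other 4 tested H1 genes, Hist1h1a, Hist1h1b, Hist1h1d and Hist1h1e, were not called against DMSO. All differed widely between the DMSO libraries and had wide standard errors, as for Hist1h1d with -1.61 (SE 1.124) for EPZ5676, -1.33 (SE 1.109) for MI-2-2 and -1.95 (SE 1.137) for iBET. For Hist1h1b the change with MI-2-2 was -2.57 against the first DMSO library (edgeR adjusted p = 0.0159) and 1.43 against the second (adjusted p = 0.171). Its direction thus depended on the control library.

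The replacement linker histone H1f0 (H1.0) had 372 and 165 CPM in DMSO, 192 and 132 with MM-401, 484 and 330 with EPZ5676, 565 and 344 with MI-2-2, and 646 and 516 with iBET. Only with iBET did both libraries lie above both DMSO libraries. None of its changes against DMSO was called, with log2 values of 0.60 (SE 0.413), 0.76 (SE 0.413) and 1.11 (SE 0.416) and edgeR adjusted p of 0.281, 0.174 and 0.110. DESeq2 called the iBET change (1.10, adjusted p = 0.0335). Against the second DMSO library alone all 3 were called by edgeR, with 1.30, 1.46 and 1.82, and against the first alone none was, with 0.16, 0.33 and 0.64.

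Among the H2A genes none was called against DMSO. Hist3h2a, the highest of them, had 4.01 and 1.77 CPM in DMSO, 2.71 and 1.47 with MM-401, 6.99 and 6.17 with EPZ5676, 6.85 and 5.73 with MI-2-2, and 6.94 and 6.66 with iBET. The 6 libraries of EPZ5676, MI-2-2 and iBET all lay above the other 4. Its log2 changes against DMSO were 1.18 (SE 0.425), 1.11 (SE 0.424) and 1.23 (SE 0.425), which missed the threshold with edgeR adjusted p of 0.0600, 0.0674 and 0.0911, whereas DESeq2 gave 0.0235, 0.0311 and 0.0424. Against the second DMSO library alone all 3 were called by edgeR (1.89, 1.83 and 1.94), and against the first alone none was (0.74, 0.68 and 0.76). Hist3h2ba, an H2B gene of the same small Hist3 group with too few reads to be tested, had 1 and 0 reads in DMSO, 0 and 0 with MM-401, 6 and 3 with EPZ5676, 9 and 8 with MI-2-2, and 2 and 0 with iBET. The next highest H2A genes, Hist1h2ae and Hist1h2ak, had 207 and 154 reads in all and were not called in any comparison.

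Among the H2B genes, Hist1h2bc rose with MI-2-2 and iBET. It had 13.0 and 3.79 CPM in DMSO, 4.86 and 4.45 with MM-401, 18.8 and 18.4 with EPZ5676, 24.2 and 20.2 with MI-2-2, and 31.5 and 29.7 with iBET. Both libraries of EPZ5676, MI-2-2 and iBET exceeded the higher DMSO library. The log2 change was 1.40 (SE 0.458, edgeR adjusted p = 0.0411) with MI-2-2 and 1.86 (SE 0.463, edgeR adjusted p = 0.0371) with iBET. With EPZ5676 it was 1.14 (SE 0.457), not called at an edgeR adjusted p of 0.0824, while DESeq2 called it (1.19, adjusted p = 0.0287). The size depended on the DMSO library, with 0.54, 0.81 and 1.23 against the first DMSO library for EPZ5676, MI-2-2 and iBET, all called, and 2.30, 2.55 and 3.02 against the second. These calls were near the threshold. The MI-2-2 call was lost without either MI-2-2 library (log2 1.26 and 1.53, edgeR adjusted p = 0.144 and 0.0984) and without any 1 of the MM-401, EPZ5676 or iBET libraries (adjusted p of 0.0651 to 0.0683). The iBET call was lost without either iBET library (log2 1.82 and 1.90, edgeR adjusted p = 0.151 and 0.143) and without any 1 of the MM-401, EPZ5676 or MI-2-2 libraries (adjusted p of 0.0614 to 0.0728).

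Hist2h2be, the next H2B gene, had 12.8 and 5.23 CPM in DMSO, 6.21 and 4.37 with MM-401, 10.7 and 9.70 with EPZ5676, 9.02 and 9.61 with MI-2-2, and 18.8 and 14.6 with iBET. The iBET libraries lay above all others. Its change with iBET was 0.89 (SE 0.390), with an edgeR adjusted p of 0.161. Against the second DMSO library alone it was called with EPZ5676, MI-2-2 and iBET (0.97, 0.84 and 1.68, edgeR adjusted p = 0.0238, 0.0377 and 0.00585), and against the first alone with none (-0.30, -0.42 and 0.39). Hist1h2bj, the third in level, had 14 to 62 reads per library and no call. Hist1h2ac, an H2A gene beside Hist1h2bc, had 26 and 5 reads in DMSO and 6 and 1 with iBET, with no call either.

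**Figure D4:**
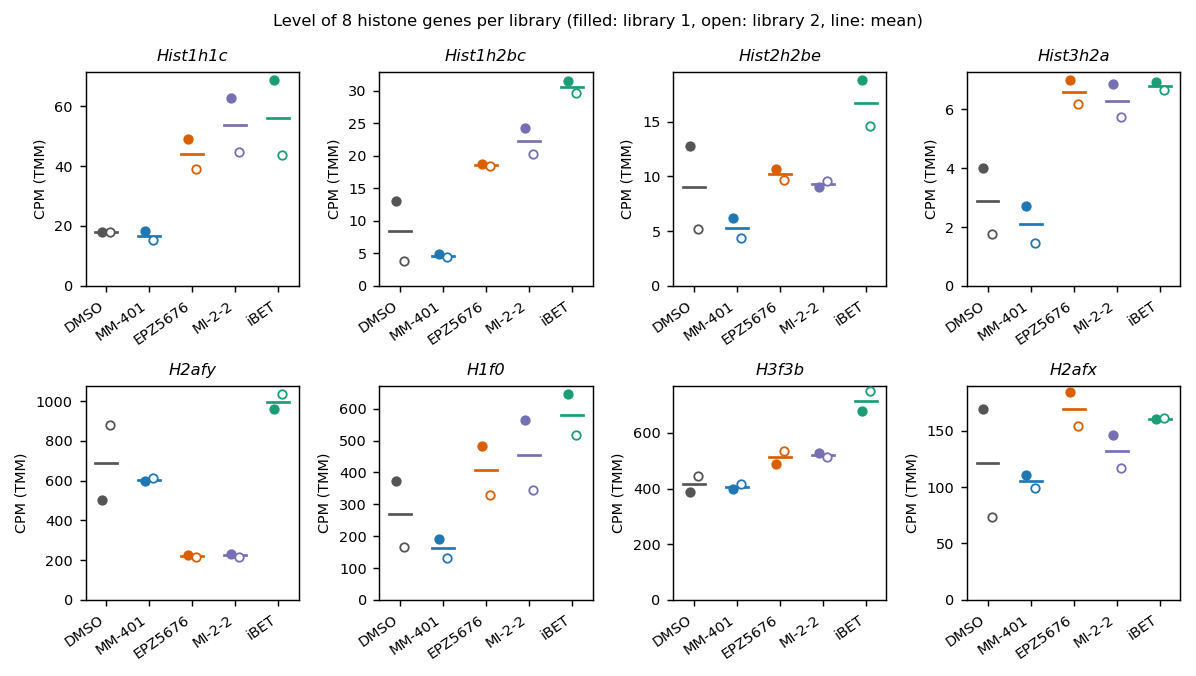
CPM (TMM-scaled, vertical axes from 0) of 8 histone genes in the 2 libraries of each condition (filled and open points, mean as a line). Hist1h1c and Hist3h2a have all 6 EPZ5676, MI-2-2 and iBET libraries above the 4 DMSO and MM-401 libraries, and H2afy is lowest in the EPZ5676 and MI-2-2 libraries (214 to 232) and highest with iBET (961 and 1036).

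The H3 and H4 genes were low, and those called fell with MI-2-2. Hist1h3c had 35 and 19 reads in DMSO, 22 and 30 with MM-401, 19 and 21 with EPZ5676, 8 and 10 with MI-2-2, and 16 and 19 with iBET. Both MI-2-2 libraries were below all others, and the log2 change was -1.66 (SE 0.402, edgeR adjusted p = 0.0130). Hist1h3a had 30 and 5 reads in DMSO, 4 and 11 with MM-401, 9 and 5 with EPZ5676, 3 and 2 with MI-2-2, and 13 and 9 with iBET. Its change of -2.78 (SE 0.930, edgeR adjusted p = 0.0441) was -1.22 without the first DMSO library (adjusted p = 0.323). It was also lost without any 1 of the other libraries except the second DMSO library (edgeR adjusted p of 0.0602 to 0.212), and with DESeq2 (adjusted p = 0.0623). The call for Hist1h3c was lost without either MI-2-2 library (log2 -1.63 and -1.70, edgeR adjusted p = 0.0752 and 0.0792).

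Hist1h4b had 11 and 8 reads in DMSO, 10 and 10 with MM-401, 9 and 7 with EPZ5676, 0 and 2 with MI-2-2, and 7 and 16 with iBET. Both MI-2-2 libraries were below all others, with a ratio of summed reads to DMSO of 0.0971, for which the 95% interval from the 2 and 19 reads is 0.0110 to 0.403, covering counting error only. The fitted log2 change was -3.21 (SE 0.850, edgeR adjusted p = 0.0186), and -2.39 without the first MI-2-2 library (adjusted p = 0.0811). Hist1h4i, the highest H4 gene, had 70 to 212 reads and no call, with 0.88 (SE 0.298, edgeR adjusted p = 0.0860) for iBET. Hist1h4d and Hist1h4k were not called in any comparison with both DMSO libraries as control. Against the second DMSO library alone, Hist1h4i and Hist1h4k were called with EPZ5676 (0.87 and 1.95, edgeR adjusted p = 0.0470 and 0.0251) and with iBET (1.22 and 2.09, edgeR adjusted p = 0.0250 and 0.0322), and against the first alone neither was. The other H3 genes near the top, Hist1h3e and Hist1h3g, had 47 and 8 and 42 and 6 reads in DMSO and no call with both libraries as control. Against the first DMSO library alone, Hist1h3g and the H4 gene Hist1h4f were among the falls with EPZ5676 and MI-2-2. The H3 gene Hist1h3f was among them with MI-2-2 only. Against the second alone, Hist1h3g, Hist1h4f and Hist1h3f were not called.

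Among the H2A variants, H2afy, which encodes macroH2A1, showed the widest contrast between inhibitors. It had 503 and 879 CPM in DMSO, 596 and 612 with MM-401, 226 and 214 with EPZ5676, 232 and 217 with MI-2-2, and 961 and 1036 with iBET. The EPZ5676 and MI-2-2 libraries were below and the iBET libraries above every DMSO and MM-401 library. The log2 change was -1.65 (SE 0.237, edgeR adjusted p = 0.00195) with EPZ5676 and -1.62 (SE 0.237, edgeR adjusted p = 0.00191) with MI-2-2. With iBET it was 0.53 (SE 0.232) and not called (edgeR adjusted p = 0.158), and with MM-401 -0.19 (SE 0.231, adjusted p = 0.804). Against the first DMSO library alone the falls were -1.17 and -1.13 and the iBET value of 0.99 was called (edgeR adjusted p = 0.00407). Against the second it fell by 2.00 with EPZ5676 and dropped by 1.97 with MI-2-2 on the log2 scale, and the iBET value was 0.19 (edgeR adjusted p = 0.293).

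iBET was also compared directly with the inhibitors under which H2afy fell, where the DMSO libraries enter only the shared fit of the spread and not the fold change. These 2 comparisons were added after its values had been seen. H2afy was higher with iBET by 2.18 (SE 0.241, edgeR adjusted p = 0.000593) against EPZ5676 and by 2.16 (SE 0.241, edgeR adjusted p = 0.000703) against MI-2-2. Neither call was lost in any of 17 alternatives. Against EPZ5676 2 members were higher with iBET (H2afy and H3f3b) and none lower, with 18.5% and 19.1% of all genes. Against MI-2-2 4 were higher (H2afy, H3f3b, Hist1h2ag and Hist1h4b) and none lower, with 19.1% and 19.7%. Hist1h2ag, an H2A gene with 6 and 11 reads with MI-2-2 and 18 and 27 with iBET, differed by 1.44 (SE 0.436, edgeR adjusted p = 0.0326) and lost its call in 10 of the 17 alternatives, DESeq2 among them. Hist1h4b differed by 3.40 (SE 0.838, edgeR adjusted p = 0.0155), and its call was lost without the first MI-2-2 library (2.58, edgeR adjusted p = 0.0736) and without the second iBET library (2.83, edgeR adjusted p = 0.109).

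H2afx, H2afz and H2afv were not called in any comparison. H2afx had 169 and 73.1 CPM in DMSO, 111 and 99.4 with MM-401, 184 and 154 with EPZ5676, 146 and 117 with MI-2-2, and 160 and 161 with iBET. Like the clustered genes it was more than 2-fold apart between the DMSO libraries, and all 8 treated libraries but the first EPZ5676 library lay between them. It was among the rises of EPZ5676, MI-2-2 and iBET when the second DMSO library alone was the control. H2afz ranged from 36.5 to 68.6 CPM, and both MI-2-2 libraries were below both DMSO libraries (log2 -0.47, SE 0.246, edgeR adjusted p = 0.158). H2afv ranged from 54.6 to 89.7 CPM.

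Of the H3.3 genes, which encode the same protein, H3f3b rose with iBET. It had 388 and 447 CPM in DMSO, 398 and 416 with MM-401, 489 and 536 with EPZ5676, 527 and 515 with MI-2-2, and 678 and 751 with iBET. The iBET libraries were above all others, and the log2 change of 0.78 (SE 0.130, edgeR adjusted p = 0.0106) was 0.88 and 0.68 against the first and the second DMSO library alone, called in both. It lost its call without either iBET library (log2 0.85 and 0.70, edgeR adjusted p = 0.0546 and 0.0858). With EPZ5676 and MI-2-2 the changes were 0.30 and 0.32, with edgeR adjusted p of 0.106 and 0.0812. Directly against EPZ5676 and MI-2-2 the level with iBET was higher by 0.48 (SE 0.130) and 0.46 (SE 0.130), with edgeR adjusted p of 0.0218 and 0.0262. Both of these direct calls were lost without either iBET library (adjusted p of 0.0545 to 0.159) or either library of the other inhibitor (adjusted p of 0.0514 to 0.113), and the second also without either MM-401 library (adjusted p = 0.0542). Against the first DMSO library alone H3f3b was also called with EPZ5676 and MI-2-2 (0.43 and 0.46, edgeR adjusted p = 0.0344 and 0.0249), and against the second alone it was not. H3f3a had 77.9 to 180 CPM and was not called with both DMSO libraries as control. Against the first alone it was called with EPZ5676 (0.94, edgeR adjusted p = 0.0220), and against the second it stood at 0.34 (edgeR adjusted p = 0.276).

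MI-2-2 and EPZ5676 were compared directly to ask where histone levels differed between blocking MENIN and blocking DOT1L. No member rose or fell, against 0.00771% of all genes in each direction, or 1 gene each way. At an unadjusted p under 0.05 there were 5 members, and DESeq2 called none. For Hist1h1c the difference was 0.29 (SE 0.252, edgeR adjusted p = 0.938) and for H2afy 0.03 (SE 0.232, edgeR adjusted p = 0.997). A difference that misses the threshold does not show that the 2 inhibitors act alike.

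MM-401 served as a second reference. The fold changes against it do not use the DMSO libraries, which still enter the shared fit and so its error and p-values, and the 3 comparisons with it share its 2 libraries. EPZ5676 had 5 members higher (Hist1h1c, Hist1h2bc, Hist3h2a, H1f0 and H3f3a) and 1 lower (H2afy), against 16.7% and 16.6% of all genes. MI-2-2 had 4 higher (Hist1h1c, Hist1h2bc, Hist3h2a and H1f0) and 3 lower (H2afy, Hist1h3c and Hist1h4b), against 18.0% and 17.6%. iBET had 6 higher (Hist1h1c, Hist1h2bc, Hist3h2a, Hist2h2be, H1f0 and H3f3b) and none lower, against 5.48% and 5.96%. Of the 48 members 12.5% were therefore called for EPZ5676 and for iBET and 14.6% for MI-2-2.

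Against MM-401, the genes that were higher differed as follows. Hist1h2bc was higher by 2.00 (SE 0.473) with EPZ5676, 2.25 (SE 0.475) with MI-2-2 and 2.72 (SE 0.482) with iBET, at edgeR adjusted p of 0.0153, 0.00922 and 0.0132. Hist3h2a was higher by 1.65 (SE 0.433), 1.59 (SE 0.432) and 1.70 (SE 0.433), at edgeR adjusted p of 0.0224, 0.0240 and 0.0436. H1f0 was higher by 1.33 (SE 0.418), 1.49 (SE 0.420) and 1.84 (SE 0.424), at edgeR adjusted p of 0.0427, 0.0273 and 0.0319. Hist1h1c was higher by 1.40, 1.68 and 1.75, at edgeR adjusted p of 0.00627, 0.00322 and 0.00778. H2afy differed by -1.46 with EPZ5676 and -1.43 with MI-2-2, at edgeR adjusted p of 0.00389 and 0.00393. Called in 1 comparison each among EPZ5676 and iBET were H3f3a with EPZ5676 (0.77, SE 0.247, edgeR adjusted p = 0.0451), Hist2h2be with iBET (1.66, SE 0.400, edgeR adjusted p = 0.0373) and H3f3b with iBET (0.81, SE 0.130, edgeR adjusted p = 0.0100). With MI-2-2, Hist1h3c was lower by a log2 change of -1.61 and Hist1h4b by one of -3.26 (edgeR adjusted p of 0.0176 and 0.0201). The calls of H2afy against MM-401, and that of Hist1h1c for MI-2-2, were lost in none of the 17 alternatives.

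Most calls against MM-401 were lost when 1 library was left out. Without the second MM-401 library, every call but those of H2afy and that of Hist1h1c for MI-2-2 was lost, with Hist3h2a at 1.28, 1.22 and 1.33 and H1f0 at 1.08, 1.25 and 1.60 for EPZ5676, MI-2-2 and iBET (edgeR adjusted p of 0.148 to 0.261 and 0.167 to 0.223). Without the first MM-401 library, Hist1h2bc stood at 2.06, 2.32 and 2.78 and H1f0 at 1.62, 1.78 and 2.14, and none of these was called (edgeR adjusted p of 0.0617 to 0.121). In both fits no iBET call was left. Some calls were also lost without a library of neither condition, at an unchanged fold change, such as Hist3h2a with iBET without any 1 of the EPZ5676 or MI-2-2 libraries (1.70, edgeR adjusted p of 0.0742 to 0.0746), and H3f3a with EPZ5676 without any 1 of the MI-2-2 or iBET libraries (0.77, edgeR adjusted p of 0.0679 to 0.0735).

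Reads of the clustered genes were also split by the annotated transcript end, a split chosen after the values had been seen. The 10 genes with AATAAA near a transcript end and at least 10 reads had 41.3 and 27.0 reads per 1000000 counted in DMSO, 31.0 and 23.6 with MM-401, 67.4 and 52.1 with EPZ5676, 78.8 and 57.2 with MI-2-2, and 101 and 69.0 with iBET. The other 45 had 93.8 and 22.1 in DMSO, 43.3 and 34.8 with MM-401, 52.2 and 47.7 with EPZ5676, 60.5 and 35.3 with MI-2-2, and 72.5 and 67.3 with iBET. The first set was higher in all 6 libraries of EPZ5676, MI-2-2 and iBET than in the 4 of DMSO and MM-401, while the second lay within the DMSO range in every treated library. Among the 10 genes of the first set, only Hist1h1c and Hist3h2a showed this separation on their own. Hist2h2be had 12.8 and 5.23 CPM in DMSO, 9.02 to 10.7 with EPZ5676 and MI-2-2, and 18.8 and 14.6 with iBET. Hist1h2ae had 1.32 and 0.623 CPM in DMSO and 0.438 to 1.06 with EPZ5676, MI-2-2 and iBET. Hist1h1c supplied 463 of 980 and 376 of 551 reads of the first set in DMSO. With MM-401 it was 431 of 702 and 363 of 548, and with EPZ5676 1011 of 1432 and 829 of 1224. With MI-2-2 it was 1448 of 1874 and 1227 of 1685, and with iBET 1554 of 2199 and 1139 of 1753. The separation of the first set was not shown to hold without Hist1h1c, as no such sum was computed. The share held by the first set was 30.6% and 55.0% in the DMSO libraries and 50.6% to 61.8% with EPZ5676, MI-2-2 and iBET, and Hist1h1c alone held 32.9% to 45.0% of clustered reads in the latter. Hist1h2bc falls in the second set although it rose, since its only annotated transcript, 745 bases past the coding end, has neither the stem-loop nor AATAAA there. The called genes that fell among the clustered members, Hist1h3a, Hist1h3c and Hist1h4b, have the stem-loop and no AATAAA. Most clustered genes are of this kind. Only 7 of the 41 tested have AATAAA near a transcript end, and 44 of 67 clustered members have the stem-loop. A link between transcript end and direction was not tested.

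**Figure D5:**
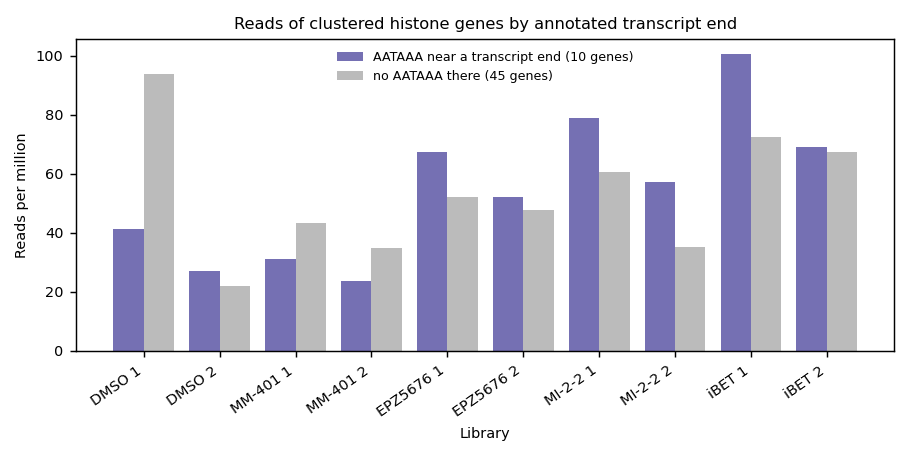
Reads per 1000000 counted (vertical axis from 0) in each of the 10 libraries, summed over the 10 clustered genes with AATAAA near an annotated transcript end and over the 45 without. The first sum is 52.1 to 101 with EPZ5676, MI-2-2 and iBET and 23.6 to 41.3 in the DMSO and MM-401 libraries. Of its genes, only Hist1h1c and Hist3h2a separate these libraries on their own, and no sum without Hist1h1c was computed.

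Neighbouring genes could change in opposite directions. By RefSeq gene order on chromosome 13, Hist1h3c lies next to Hist1h1c, and with MI-2-2 they changed by -1.66 and 1.58.

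The genes that make, process and carry histones were read from the same fit. Of 12 genes for the ends of histone mRNA and the histone locus body, 4 fell with EPZ5676 and 4 with MI-2-2, 1 fell with iBET and none was called with MM-401, and none rose. Over all genes, 19.4%, 21.2% and 7.54% fell in these 3 comparisons and 0% with MM-401. Npat, which drives histone transcription in S phase, was at 67.4 and 71.3 CPM in DMSO, 67.0 and 72.5 with MM-401, 46.6 and 46.7 with EPZ5676, 42.8 and 43.0 with MI-2-2, and 75.9 and 79.9 with iBET. Its log2 change was -0.57 (SE 0.101) with EPZ5676 and -0.69 (SE 0.101) with MI-2-2, at edgeR adjusted p of 0.00427 and 0.00192. Slbp, the stem-loop binding protein, was not called, with 0.24, -0.15 and 0.48 for EPZ5676, MI-2-2 and iBET (edgeR adjusted p of 0.278, 0.473 and 0.0846).

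Of 20 histone chaperones and carriers, 8 fell and 1 rose with EPZ5676, 11 fell with MI-2-2 and 1 fell with iBET. The background is again falls in 19.4%, 21.2% and 7.54% of all genes, and rises in 18.7%, 20.2% and 6.38%. With MI-2-2, Nap1l1, which carries H2A and H2B, changed by -1.26, Anp32e, which removes H2A.Z, by -1.21, Nasp, which holds H3 and H4, by -1.15, and Hat1, which acetylates new H4, by -1.07 (edgeR adjusted p of 0.00159, 0.00198, 0.00427 and 0.00182). The chaperone genes of H3.3, Hira, Daxx and Atrx, were not called with any inhibitor against DMSO.

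Of 23 genes of DNA replication and S phase, 12 fell and 1 rose with EPZ5676, 15 fell and 1 rose with MI-2-2, and Cdt1 alone fell with iBET. The same shares of all genes apply. Their median log2 change was -0.60, -0.83 and -0.26, and -0.04 with MM-401. Mcm7, of the replicative helicase, changed by -0.85 and -1.18 with EPZ5676 and MI-2-2, and Rrm2, of ribonucleotide reductase, by -0.73 and -0.91 (edgeR adjusted p of 0.000924 to 0.00282). The rise was Cdk2, by 0.68 and 0.64 (edgeR adjusted p of 0.00243 and 0.00273). In contrast to the clustered histone genes, the summed level of these genes was lower in the first DMSO library than in the second, at 4051 and 5863 CPM. It was 4306 and 4591 with MM-401, 3040 and 3312 with EPZ5676, 2651 and 2729 with MI-2-2, and 3744 and 4184 with iBET. The part of cycling in the histone results was not tested. Of 9 histone genes outside the rule, 3 were tested (H2afj, H2afy2 and Cenpa) and none was called.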

How the data were processed

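RNA sequencing gave read counts per gene for 10 libraries, 2 for each of 5 conditions. The authors deposited 1 table of whole-number counts with no normalization. The submitters' processing notes name TopHat2, Subread, DESeq and mm9, without their roles. For the annotation, the use of strand and the handling of reads that match several genes, nothing was given in the sources used here.

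Counts were filtered (filterByExpr), scaled (TMM) and fitted (glmQLFit, glmQLFTest) by edgeR 4.0.16 with limma 3.58.1 under R 4.3.3, over all 10 libraries with 1 coefficient per condition, and p was adjusted by Benjamini-Hochberg over the 12971 genes tested. CPM uses the TMM factors. Members with under 10 reads over all libraries stayed out of all statistics. Alternatives were DESeq2 1.42.0 and its size factors, total-count scaling, other filters, the replicate number as a block, only the 2 conditions compared, and each library left out. The scripts were tested on simulated data. The duplicates are described as biological. Outside DMSO, whose libraries differ in sex-linked reads, nothing shows whether they were separate cultures, and p-values then measure only the spread between these libraries.

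The members, gene lists and comparisons were chosen with earlier results of these data known. Named were all variants, the 3 highest clustered genes of each type, up to 5 called clustered genes in each direction and comparison, and called list genes with the lowest adjusted p. Hist1h1a, Hist1h1b, Hist1h2ac, Hist1h2ag, Hist1h3f, Hist1h4f, Hist1h4h, Hist3h2ba and some list genes (such as Slbp), and the comparisons of iBET with EPZ5676 and MI-2-2, were named after values were seen. Depth was 20394762 to 29473127 reads per library. Stem-loops were sought in GENCODE M21 transcripts and promoters taken from RefSeq (GRCm38.p6).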

Additional observations from a re-analysis of the deposited data

How the results depend on the processing

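Across 36 called pairs of gene and comparison and 17 alternatives, no direction reversed, 474 values stayed called and 135 did not, and 3 had no value because Hist1h3a or Hist1h4b failed the filter with only the conditions compared. H2afy was called in every alternative except MI-2-2 against DMSO with only those libraries (edgeR adjusted p = 0.0510). The number of members called against DMSO moved from 2 to 6 with the replicate block and with DESeq2 for EPZ5676, from 6 to 10 with the block and 1 with only the conditions compared for MI-2-2, and from 3 to 6 with the block and with DESeq2 and 0 with only the conditions compared for iBET. With only the conditions compared it was 11 for MI-2-2 against MM-401, 10 for iBET against MM-401 and 4 for iBET against EPZ5676. Leaving out 1 library gave, over all members that passed the filter in that fit, 0 to 1 for MM-401 against DMSO, 2 to 10 for EPZ5676 against DMSO, 2 to 14 for MI-2-2 against DMSO, 0 to 9 for iBET against DMSO, 0 to 0 for MI-2-2 against EPZ5676, 1 to 11 for EPZ5676 against MM-401, 2 to 10 for MI-2-2 against MM-401, 0 to 9 for iBET against MM-401, 1 to 5 for iBET against EPZ5676, 1 to 9 for iBET against MI-2-2. Hist1h1c with MM-401 against DMSO was 0.02 without the second MM-401 library and -0.24 without the first, instead of -0.11. The summed variant level with EPZ5676 over DMSO was -0.28 (log2) with total-count scaling instead of -0.11. Same-numbered libraries deviated together between conditions (correlation 0.278 to 0.666), but the labels tie the numbers to no batch and there are only 2. No called pair was lost under the replicate block, which in addition called H1f0 (edgeR adjusted p = 0.0248, 0.0109 and 0.00715) and Hist3h2a (0.0172, 0.0195 and 0.0283) with EPZ5676, MI-2-2 and iBET against DMSO, and Hist1h2bc with EPZ5676 (0.0385). The cause of these shifts was not tested. The called H3 and H4 genes, Hist1h3a, Hist1h3c and Hist1h4b, had at most 35 reads in any library.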
